A study of Mus musculus with 2 samples.

Results

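Genes of DNA damage repair were compared between libraries from 3T3-L1 cells, a mouse preadipocyte line, labelled for Fbxl10 overexpression and for an empty vector. A list of 52 genes was taken by symbol or older synonym, and each gene was read at the probe set with the highest mean signal over both arrays. Of these 52 genes, 51 had a probe set and 50 were detected, among 19086 genes with a probe set and 11312 detected genes in all. Xpc, the lesion sensor of nucleotide excision repair, had no probe set under its symbol, and Bard1 stayed under the detection threshold on both arrays. A gene counted as detected when its higher signal reached 19.4, the median of all signals.

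Total RNA was taken at day 2 of adipocyte differentiation in both cases, and each group is 1 sample on 1 Affymetrix mouse array. In the Fbxl10 sample, Fbxl10 (the older name of Kdm2b, a histone demethylase that also recruits a Polycomb complex) was placed in the retroviral vector pMXs-puro behind a weak LTR promoter. Its counterpart was transduced with the empty vector. Both cultures had passed confluence and received 0.5 mM isobutylmethylxanthine, 0.25 µM dexamethasone and 1 µg/ml insulin, in medium with 10% serum. With 1 array a group there is no replicate check, no error and no test for any difference below, so precision is limited by how few arrays there are.

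Cells repair DNA by several routes that share signals. Double-strand breaks are rejoined directly by end joining or copied from the sister chromatid by homologous recombination, which works in S and G2 phase, so many of its genes are transcribed with the replication genes. Damaged bases, mismatches and bulky lesions are cut out by base excision, mismatch and nucleotide excision repair, which act through much of the cell cycle. Confluent 3T3-L1 preadipocytes re-enter the cell cycle for a short time after the hormone cocktail, before they fill with lipid.

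The labels were checked first. Fbxl10 itself read 419.6 in the Fbxl10-labelled library and 558.5 in the empty vector library at one probe set (log2 difference -0.41), and 350.9 and 431.6 at the other (-0.30). Both probe sets thus go against the label, and every direction below is between the libraries as labelled. Whether the probes lie in the cloned sequence was not tested. Of 10 preadipocyte and fibroblast markers 9 were detected, with a summed signal of 40396 in the Fbxl10-labelled library and 27847 in the empty vector library, from Thy1 (737.3 and 225.6) and Col1a1 (3340 and 1423) at the high end to Pdgfrb (473.9 and 393.0) and Dlk1 (4226 and 3825) at the low end. All 9 adipocyte markers with a probe set were past 2-fold lower in the Fbxl10-labelled library (summed signal 1821, against 17509). Lpl (1395 and 5591) and Pparg (150.8 and 912.2) differed least among them, while Cfd and Cidec were under the threshold in the Fbxl10-labelled library (3.5 and 6.7, against 426.5 and 547.8). The part of these markers in the differences of the repair genes was not tested. Of 8 leukocyte markers 2 were detected, Csf1r and Cd68, with signals between 13.0 and 34.9, and none of 8 endothelial and epithelial markers was. The leukocyte gene Ptprc, the endothelial gene Pecam1 and the epithelial gene Epcam were under the threshold in both libraries.

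Recombination genes were 3 of the 5 lowest repair genes. Of the 50 detected repair genes, 5 (10.0%) were past 2-fold lower in the Fbxl10-labelled library, where 5.32% of all detected genes were, and 1 (2%) was past 2-fold higher, where 9.81% of all were. The 5 were the uracil glycosylase gene Ung, the recombination genes Xrcc3, Rad51ap1 and Rad54b, and the exonuclease gene Exo1. Xrcc5, which encodes a subunit of the Ku end-joining complex, was the gene on the higher side. At 1.5-fold, 14 (28.0%) were lower, where 13.2% of all detected genes were, and 4 (8%) were higher, where 19.5% of all were. Ercc6 among the 14 and Fancc among the 4 had 1 signal under the threshold, so for them a smaller bound is given below. The median log2 difference was -0.12 over the 50 genes and 0.06 over all detected genes, with 29 of the 50 genes (58.0%) and 45.9% of all genes below 0. The range ran from -1.39 for Ung to 1.39 for Xrcc5. In whole-culture RNA, fewer cells in a state and less RNA per cell cannot be told apart.

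**Figure D1:**
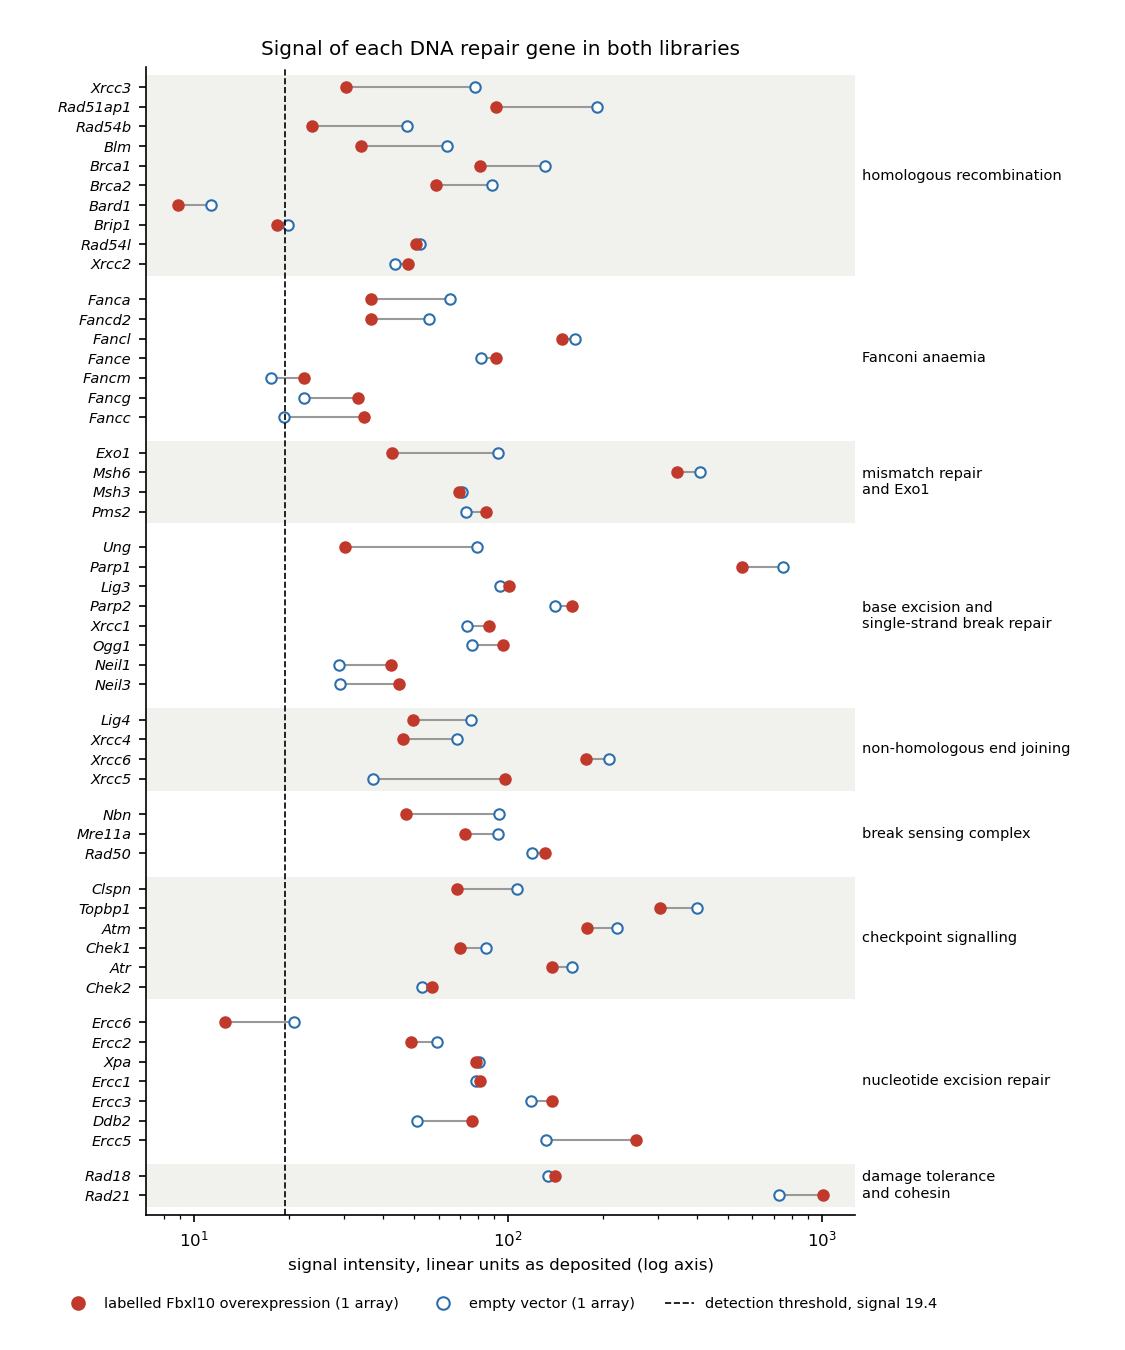
Signal of each DNA repair gene with a probe set in the library labelled Fbxl10 overexpression (filled) and in the empty vector library (open), 1 array each, on a log axis in the deposited linear units, grouped by role. The dashed line is the detection threshold of 19.4, and the widest gaps belong to Xrcc5 (97.8 and 37.2), Ung (30.2 and 79.3) and Xrcc3 (30.4 and 78.5).

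Promoter sequences of the genes past 2-fold are shown because words bound by cell cycle factors can be looked up in them directly. RefSeq (build GRCm38.p6) held 45 promoter entries for 42 of the 52 genes, and the 250 bases before each start were read 5′ to 3′ on the strand of the gene. Capitals mark the E2F words TTTCGCGC, TTTGGCGC, TTTCCCGC and TTTGCCGC, the CHR words TTTGAA and TTCGAA of mitotic promoters, and the NF-Y word CCAAT, each on either strand, with overlapping matches counted once. Rad54b and Exo1 had no promoter entry, so they were not searched and are named only. The first 4 sequences belong to genes past 2-fold, and Brca2 and Topbp1 are added as genes that hold an E2F word.
Xrcc3, chr12:111813880-111814129, minus strand: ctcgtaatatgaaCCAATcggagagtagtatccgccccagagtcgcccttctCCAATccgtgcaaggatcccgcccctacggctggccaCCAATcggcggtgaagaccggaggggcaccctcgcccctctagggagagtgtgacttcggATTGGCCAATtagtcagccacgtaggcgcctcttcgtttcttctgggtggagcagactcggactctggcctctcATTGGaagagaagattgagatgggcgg
Rad51ap1, chr6:126939588-126939837, minus strand: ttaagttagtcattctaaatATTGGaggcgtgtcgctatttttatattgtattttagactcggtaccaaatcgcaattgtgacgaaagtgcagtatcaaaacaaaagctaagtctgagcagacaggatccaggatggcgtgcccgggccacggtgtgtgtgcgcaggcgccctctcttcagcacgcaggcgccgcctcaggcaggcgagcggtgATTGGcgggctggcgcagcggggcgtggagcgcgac
Ung, chr5:114130185-114130434, plus strand: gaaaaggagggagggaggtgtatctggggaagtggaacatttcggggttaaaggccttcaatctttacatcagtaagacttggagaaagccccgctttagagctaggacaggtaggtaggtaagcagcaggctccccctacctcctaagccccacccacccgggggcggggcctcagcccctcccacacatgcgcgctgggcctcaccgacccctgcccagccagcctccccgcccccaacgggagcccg
Xrcc5, chr1:72307171-72307420, plus strand: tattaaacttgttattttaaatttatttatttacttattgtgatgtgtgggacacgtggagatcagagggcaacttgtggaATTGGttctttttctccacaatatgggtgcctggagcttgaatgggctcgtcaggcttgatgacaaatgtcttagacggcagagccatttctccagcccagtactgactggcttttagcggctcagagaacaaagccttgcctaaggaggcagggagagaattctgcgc
Brca2, chr5:150522371-150522620, plus strand: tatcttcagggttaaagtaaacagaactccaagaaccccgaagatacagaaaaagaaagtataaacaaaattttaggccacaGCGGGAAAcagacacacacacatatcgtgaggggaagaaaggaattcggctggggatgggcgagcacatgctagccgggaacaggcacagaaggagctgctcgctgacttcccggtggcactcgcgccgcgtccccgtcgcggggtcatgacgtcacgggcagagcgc
Topbp1, chr9:103305077-103305326, plus strand: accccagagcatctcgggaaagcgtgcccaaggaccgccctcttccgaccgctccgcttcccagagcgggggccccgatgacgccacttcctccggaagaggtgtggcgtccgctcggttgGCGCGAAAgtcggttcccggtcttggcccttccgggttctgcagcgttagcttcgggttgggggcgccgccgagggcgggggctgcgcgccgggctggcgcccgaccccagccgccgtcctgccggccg

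None of the 4 entries of genes past 2-fold held an E2F or CHR word in this window. CCAAT stood 6 times before Xrcc3, 2 times before Rad51ap1, 1 time before Xrcc5 and not before Ung. Among the 45 entries of repair genes, 7 (15.6%) held an E2F word, against 1.86% of all 32851 promoters. The share was 4.55% of 110 promoters in a wider list of repair genes, 31.0% of 29 promoters of S phase genes outside the list and 6.25% of 48 promoters of mitotic genes. The 7 genes differed widely in their log2 difference: Brca2 (-0.59), Topbp1 (-0.40), Xrcc6 (-0.25), Msh3 (-0.03), Chek2 (0.10), Fancg (0.57) and the undetected Bard1. A CHR word stood in 4 entries (8.89%, against 17.1% of all promoters, 11.8% for the wider repair list, 20.7% for S phase genes and 47.9% for mitotic genes). CCAAT stood in 23 entries (51.1%, against 33.8% of all promoters, 48.2% for the wider repair list, 65.5% for S phase genes and 77.1% for mitotic genes). Base composition of these sets was not compared, and a match is a description of the letters alone.

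Of 10 homologous recombination genes 9 were detected, and 3 of them (33.3%, against 5.32% of all detected genes) were past 2-fold lower in the Fbxl10-labelled library. Below 0 were 8 of the 9 (88.9%, against 45.9% of all), among them Rad54l and Brip1, which lay close to 0. The median log2 difference was -0.69 and the summed signal was 436.2 in the Fbxl10-labelled library and 717.3 in the empty vector library. Xrcc3, which takes part in strand exchange between sister chromatids, read 30.4 in the Fbxl10-labelled library and 78.5 in the empty vector library, 2.58-fold lower. Its second detected probe set read 14.9 and 32.6, of which the first is under the threshold.

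Rad51ap1, which promotes strand invasion, read 91.2 in the Fbxl10-labelled library and 191.7 in the empty vector library, 2.10-fold lower. Its 4 probe sets were all below 0, between -1.28 and -0.38 on the log2 scale, so the gene passed 2-fold at 2 of them. Rad54b, a DNA translocase of the same route, read 23.7 and 47.5 at its single detected probe set (log2 difference -1.003), at the edge of 2-fold and close to the threshold of detection. The related translocase Rad54l read 50.8 and 52.3 (-0.04), and stood at 0.2 in the authors' deposited table.

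Blm, the RecQ helicase that dissolves joined recombination intermediates, read 33.9 in the Fbxl10-labelled library and 63.9 in the empty vector library (-0.91). Brca1, the ubiquitin ligase that steers breaks to recombination, read 81.0 and 131.0 (-0.69), and its 3 detected probe sets lay between -1.01 and -0.69. Brca2, a mediator of strand exchange, read 59.0 and 89.0 (-0.59). These 3 genes were lower without reaching 2-fold at the probe set used. Xrcc2, which acts in the same route as Xrcc3, was the one gene above 0 (47.8 and 43.5, 0.14), while its second probe set read 17.9 and 21.4, with 1 signal under the threshold. The helicase gene Brip1 read 18.4 and 19.9, a bound of no less than 1.03-fold lower, and Bard1, the partner of Brca1, read 8.9 and 11.3 with no detected probe set.

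**Figure D2:**
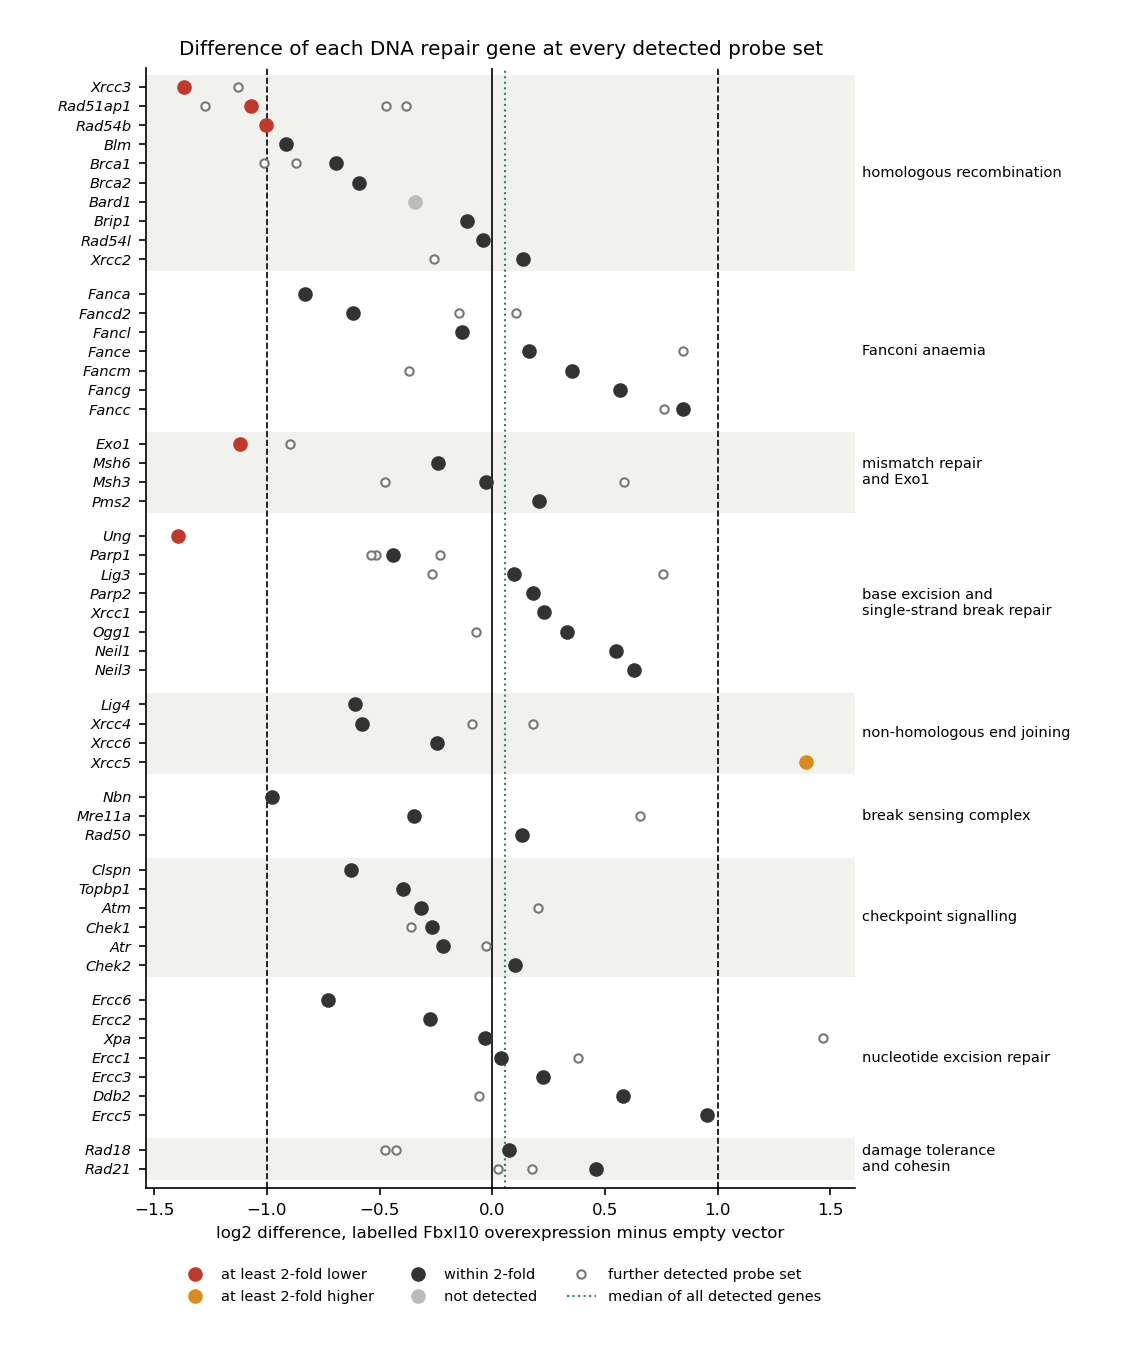
Log2 difference (labelled Fbxl10 overexpression minus empty vector) of each DNA repair gene at the probe set used (large points) and at its further detected probe sets (open points), by role, with 1 array in each group. Dashed lines mark 2-fold and the dotted line the median of all detected genes (0.06); at the probe set used, recombination genes lie left of 0 except Xrcc2, and base excision genes right of 0 except Ung and Parp1, while further probe sets of Lig3 and Ogg1 lie left of 0.

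Fanconi anaemia genes, whose products unhook DNA crosslinks, went both ways. All 7 were detected, 3 below 0 (42.9%, against 45.9% of all detected genes) and none past 2-fold, with a median of 0.16. Fanca, a core complex subunit, read 36.6 in the Fbxl10-labelled library and 65.2 in the empty vector library (-0.83), but its value in the authors' deposited table was -0.1. Fancd2, the protein that the core complex ubiquitinates, read 36.5 and 56.0 (-0.62), while its other detected probe sets were at -0.15 and 0.11. Neither difference is therefore held by every reading of the gene. Fancc read 34.7 and 19.3, a difference bounded at no less than 1.79-fold higher since the second signal is under the threshold, and its second detected probe set read 30.7 and 18.1, again with 1 signal under the threshold. Fancg read 33.2 and 22.4 (0.57), Fance 91.5 and 81.8 (0.16) with 83.7 and 46.6 (0.84) at its other probe set, and the ubiquitin ligase gene Fancl 148.5 and 163.0 (-0.13). Fancm, which anchors the complex on DNA, stayed next to the threshold (22.4 and 17.5, with 16.9 and 21.8 at another probe set). In the authors' deposited table Fancc and Fancm stood at 0.6, but the other detected Fancm probe set at -0.7. Fancg and Fance stood at 0 there and the other Fance probe set at -0.1.

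Among mismatch repair genes only Exo1 passed 2-fold. Exo1, a nuclease that removes the mismatched strand and also resects breaks, read 42.6 in the Fbxl10-labelled library and 92.7 in the empty vector library, 2.18-fold lower, and its second detected probe set lay at -0.90. Of the mismatch recognition genes, Msh6 read 346.0 and 408.6 (-0.24). Msh3 read 69.7 and 71.0 (-0.03), but its probe sets did not share a direction, with 21.4 and 29.8 (-0.48) at the second and 23.1 and 15.4 at the third. Pms2, the endonuclease subunit, read 84.8 and 73.5 (0.21).

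Ung was the only one of 8 base excision and single-strand break repair genes to pass 2-fold. Above 0 were 6 of the 8, against 54.0% of all detected genes, but 4 with spike-in centring and 3 in the authors' deposited table. Ung, which removes uracil from DNA, read 30.2 in the Fbxl10-labelled library and 79.3 in the empty vector library at its single probe set, 2.63-fold lower, and the authors' deposited table gave -1.6. It was the lowest of the 50 detected repair genes. Of the glycosylases for oxidised bases, Neil3 read 45.0 and 29.1 (0.63) and Neil1 42.3 and 28.9 (0.55). Ogg1 read 96.4 and 76.5 (0.33), but 31.8 and 33.4 (-0.07) at its second probe set, and stood at -0.1 in the authors' deposited table. Signals of Neil1 and Neil3 were low, where probe sets of 1 gene differ most, as given below. Parp1, the abundant sensor of nicked DNA, read 553.7 and 750.9 (-0.44), with all 4 probe sets between -0.54 and -0.23. Its relative Parp2 read 159.3 and 140.6 (0.18). The scaffold gene Xrcc1 was at 0.23 and the ligase gene Lig3 at 0.10, with further Lig3 probe sets at -0.27 and 0.76. The median of the 8 genes was 0.21.

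End-joining genes were within 2-fold except Xrcc5. Xrcc5 read 97.8 in the Fbxl10-labelled library and 37.2 in the empty vector library, 2.63-fold higher, at the single probe set under its symbol. Xrcc6, which encodes the other Ku subunit, read 177.2 and 210.0 (-0.25). At these probe sets the transcripts of the obligate Ku dimer lay on opposite sides of 0. The Xrcc6 difference is smaller than the SD between probe sets of the same gene given below. Lig4, the ligase of this route, read 49.7 and 75.9 (-0.61). Its cofactor Xrcc4 read 46.1 and 68.8 (-0.58) at the probe set used, with the others at -0.09 and 0.18.

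No gene of the break-sensing complex or of checkpoint signalling passed 2-fold. Nbn, the subunit that brings Atm to breaks, read 47.4 in the Fbxl10-labelled library and 93.4 in the empty vector library at its single probe set (-0.98), just short of 2-fold. The nuclease gene Mre11a read 72.9 and 92.8 (-0.35) but its second detected probe set lay at 0.66. Rad50, the third subunit, read 130.7 and 119.3 (0.13), so the subunits of this complex did not share a direction. Of 6 checkpoint genes, 5 were below 0 (83.3%, against 45.9% of all detected genes), with a median of -0.29. Clspn, the adaptor through which Atr activates Chek1, was lowest (68.9 and 106.3, -0.63), followed by the Atr activator Topbp1 (304.6 and 400.7, -0.40). The kinases lay closer to 0, Atm at -0.32, Chek1 at -0.27, Atr at -0.22 and Chek2 at 0.10. A further probe set of Atm lay at 0.20.

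Nucleotide excision repair genes were centred near 0 (median 0.04), with 3 of 7 detected genes below 0 (42.9%, against 45.9% of all detected genes). Ercc5, the nuclease that cuts on one side of a lesion, was highest at 254.8 in the Fbxl10-labelled library and 131.8 in the empty vector library (0.95), short of 2-fold. Ddb2, the ultraviolet damage sensor and a p53 target in human cells, read 76.6 and 51.3 (0.58), with its second probe set at -0.06. The helicase genes of the TFIIH complex were within a small range, Ercc3 at 137.9 and 118.0 (0.22) and Ercc2 at 48.9 and 59.2 (-0.28). Ercc1, which pairs with the second nuclease, read 81.1 and 79.0 (0.04), but 70.9 and 54.5 (0.38) at its second probe set. The authors' ratio at the probe set used was 0.4. Xpa, the scaffold of the incision complex, read 79.0 and 80.8 (-0.03), while another probe set read 32.9 and 11.9. Ercc6, of transcription-coupled repair, was under the threshold in the Fbxl10-labelled library (12.5, against 20.7), which bounds its difference at no less than 1.07-fold lower.

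The remaining genes were Rad18, the ligase that marks PCNA at stalled forks, and Rad21, the cohesin subunit that closes the ring around sister chromatids. Rad18 read 141.1 in the Fbxl10-labelled library and 134.1 in the empty vector library (0.07), but its other probe sets were at -0.47 and -0.43. Rad21 read 1005 and 730.0 (0.46), against 0.03 and 0.18 at its other probe sets. The probe sets of Rad18 thus lay on both sides of 0, and those of Rad21 all above it but unequal in size.

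These values can be set against how well probe sets of the same gene agreed. The 51 genes had 107 probe sets, and 35 genes had more than 1. Of 28 further probe sets measured on both arrays, 19 had the sign of the one used. Probe sets of 1 gene differed by an SD of 0.35 on the log2 scale over the 18 repair genes where several were measured on both arrays, and of 0.302 over 4615 genes of the whole table. At mean signals under 50 the SD was 0.406 and from 200 on 0.258, and 35 of the 50 detected repair genes had a mean signal under 100. It covers probe sets and not cultures. Differences such as those of Xrcc2, Chek2 or Msh3 are smaller than it. Those of Ung, Xrcc3, Rad51ap1, Exo1 and Xrcc5 are larger, but genes picked for passing 2-fold exceed it by that rule. Ung, Xrcc5 and Chek2 have 1 probe set each, and the second probe sets of Xrcc3 and Xrcc2 were not measured on both arrays. The SD therefore includes none of these genes. Over all detected genes at mean signals from 50 to 100, the differences themselves had an SD of 0.727. There is no measure of the spread between cultures.

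Brightness moved with the differences of all genes, and its part in the results was not tested. All detected genes had a median log2 difference of 0.34 under a mean signal of 50, 0.14 between 50 and 100, 0.03 between 100 and 200 and -0.05 from 200. Over the same 4 ranges the repair genes had medians of 0.14 (11 genes), -0.16 (24 genes), -0.13 (11 genes) and -0.32 (4 genes). In each range the median of the repair genes lay below that of all genes.

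**Figure D3:**
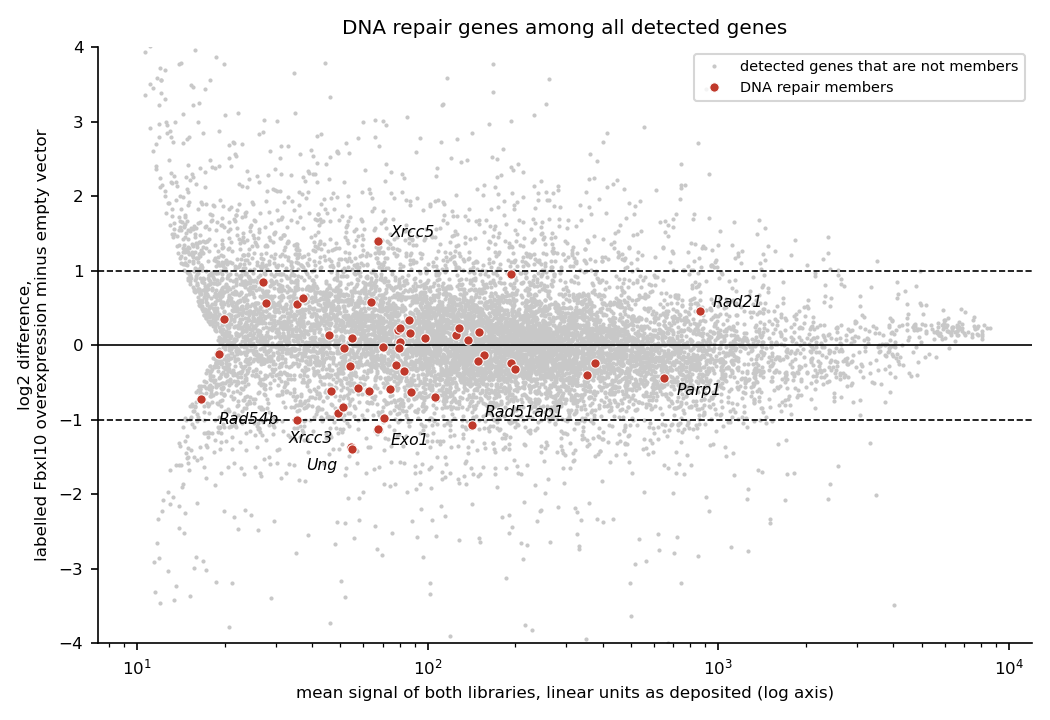
Log2 difference (labelled Fbxl10 overexpression minus empty vector) against the mean signal of both libraries on a log axis, for all detected genes (grey) and the DNA repair genes (red), 1 array in each group. Dashed lines mark 2-fold, 31 detected genes lie beyond the plotted range of 4 log2 units, and the repair genes lie mostly at mean signals under 100, with Ung and Xrcc3 lowest and Xrcc5 highest.

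A wider list held 118 repair genes outside the 52. Of 108 detected, 5 (4.63%, against 5.32% of all detected genes) were past 2-fold lower in the Fbxl10-labelled library and 2 (1.85%, against 9.81%) past 2-fold higher. At 1.5-fold, 16 (14.8%, against 13.2%) were lower and 8 (7.41%, against 19.5%) higher. Of the 108 genes 62 were below 0 (57.4%, against 45.9% of all), and the median was -0.10. With the brightness trend removed the split was 7 lower and 1 higher, with quantile normalization 6 and 1, and centred on the spike-ins 12 and 2. Among those lower were Usp1 (274.1 and 680.0, 2.48-fold), which removes ubiquitin from Fancd2, Ube2t (21.7 and 51.0, 2.35-fold), which carries ubiquitin to Fancd2, the Fanconi core gene Fancb (23.9 and 50.8, 2.13-fold) and Ube2a (479.9 and 991.9, 2.07-fold), the conjugating enzyme that works with Rad18.

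Higher were the alkyltransferase gene Mgmt (54.2 and 23.2, 2.34-fold) and the end-joining polymerase gene Polm, whose empty vector signal did not reach the threshold and which is bounded at no less than 3.22-fold higher (62.5 and 7.2). By the authors' ratio both Mgmt (0.6) and Ube2a (-0.8) were short of 2-fold. Eme1 (-0.84) and Abraxas1 (-0.78) were at the low end of the further recombination genes, and Recql was highest (0.77), followed by Mus81 (0.39) and Recql5 (0.34). In the Fanconi route Slx4 (0.50) and Faap100 (0.54) were above 0, and Fancf was at 0.09.

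Among base excision genes Tdg was at -0.82 and Fen1 at -0.40, with Mutyh next to the threshold, and Apex2 (0.94) and Mbd4 (0.80) were highest. Checkpoint genes were below 0 in 14 of 19 cases (73.7%, against 45.9% of all detected genes). They were led by the fork protection gene Tipin (-0.85), H2ax (-0.80), whose phosphorylated product marks breaks, and Cdc25a (-0.69). Trp53bp1 (0.21), Mdc1 (0.14) and Rad9a (0.14) were highest. Nucleotide excision genes were below 0 in 12 of 16 cases (75%, against the same 45.9%). Lowest were Ercc4 (-0.85), the nuclease partner of Ercc1, Rad23b (-0.80) and Cetn2 (-0.74), while Uvssa (0.64), Cdk7 (0.23) and Ddb1 (0.19) were highest. All of these were within 2-fold. The DNA-dependent kinase gene Prkdc, which acts with Ku, read 171.1 and 128.0 (0.42), and the polymerase gene Poll was at 0.09. In mismatch repair Pms1 was at -0.22. Polk, a lesion bypass polymerase, was highest of the tolerance and cohesin genes (0.95), ahead of Hltf (0.47) and Rev3l (0.33), with Pds5a (-0.25) and Rev1 (-0.16) low after Ube2a. The dealkylase genes Alkbh2 (0.10) and Alkbh3 (0.02) lay near 0 beside Mgmt. For some of these genes the detected probe sets lay on both sides of 0. They ran from -0.14 to 0.94 for Apex2 and from -0.02 to 0.95 for Polk. Those of Rad23b ran from -0.80 to 0.28 and those of Ercc4 from -0.85 to 0.03.

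Genes of S phase and mitosis were lower beside the repair genes. Over all detected genes 5.32% were past 2-fold lower, 9.81% higher and 45.9% below 0. Of 36 detected S phase genes outside the 52, 7 (19.4%) were past 2-fold lower, none higher and 32 (88.9%) below 0. Their median was -0.57, with a summed signal of 8540 in the Fbxl10-labelled library and 12775 in the empty vector library. Rrm2, a subunit of ribonucleotide reductase (353.8 and 1175), and Cdc45, of the replicative helicase (37.8 and 112.1), were lowest, and Chaf1b (84.3 and 69.4) highest. Of these 37 listed genes, 6 are also in the wider repair list. Of 50 mitotic genes, 17 (34%) were past 2-fold lower, 1 (2%) higher and 47 (94%) below 0. Their median was -0.80, with summed signals of 9101 and 14602. Aurka (70.3 and 233.3) and Cdca8 (48.8 and 153.8) were lowest, and Psrc1 (247.6 and 104.1) and Top2a (998.2 and 950.2) highest.

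The usual S phase list for scoring cells also holds 6 of the 52 repair genes, namely Ung, Rad51ap1, Exo1, Blm, Clspn and Brip1. All 6 were below 0, 3 of them past 2-fold lower, and their median was -0.99. Of all detected genes, 5.32% were past 2-fold lower, 9.81% past 2-fold higher and 45.9% below 0. The other 44 detected repair genes had a median of -0.03, with 2 past 2-fold lower, 1 past 2-fold higher and 23 below 0. So 3 of the 5 genes past 2-fold lower belong to that list, and Xrcc3 and Rad54b do not. The part of the S phase and mitotic genes in the differences of the repair genes was not tested.

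**Figure D4:**
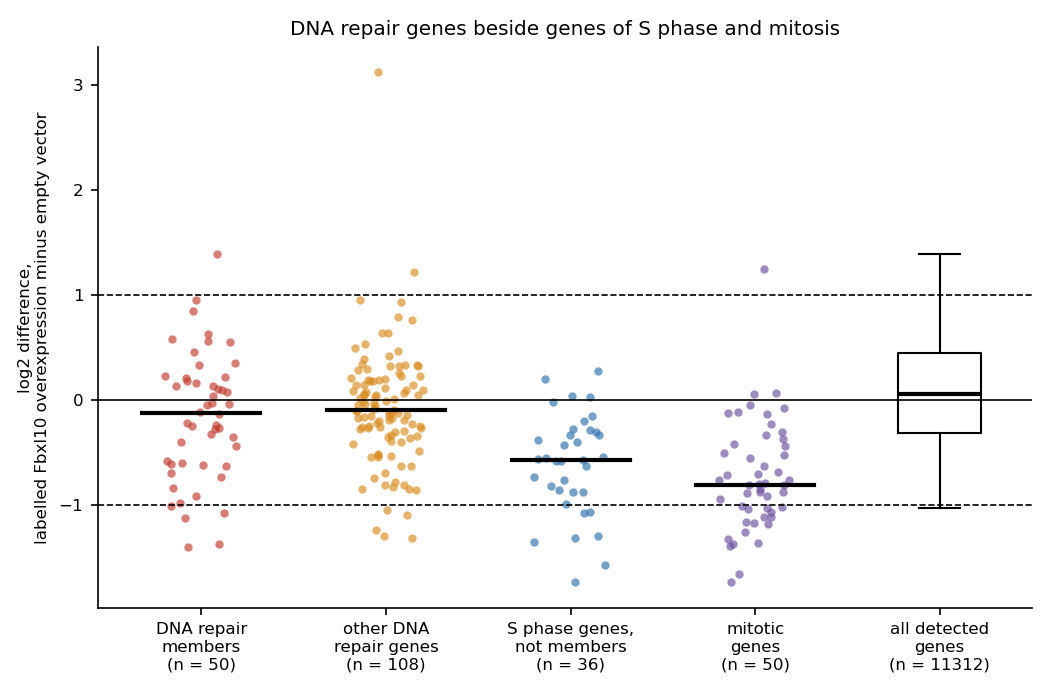
Log2 difference (labelled Fbxl10 overexpression minus empty vector) of each detected gene in 4 lists, with the median as a black bar and points spread sideways for legibility, beside all detected genes as a box from the 25th to the 75th percentile (-0.31 to 0.45) with whiskers at the 5th and 95th (-1.02 and 1.39). Medians are -0.12 for the DNA repair genes, -0.10 for the wider repair list, -0.57 for S phase genes and -0.80 for mitotic genes, against 0.06 for all genes, with 1 array in each group.

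Scaling of the arrays moved the counts, and the median of the repair genes was below 0 under each setting. Over all detected genes, 602 were past 2-fold lower and 1110 past 2-fold higher as deposited, 737 and 919 when centred on the median, 727 and 883 with quantile normalization, 956 and 763 when centred on 18 spike-in probe sets, and 790 and 716 with the brightness trend removed. The shift taken out was 0.11 for the median of detected probe sets and 0.22 for the spike-ins, which put the median of all genes at -0.16. Among the repair genes the number past 2-fold lower was 8 with spike-in centring or quantile normalization and 9 with the brightness trend removed, as Blm, Nbn and Fanca passed 2-fold, with Ercc6 under the last. Ercc6 had 1 signal under the detection threshold, and lay at -0.09 with dim signals raised to that threshold. Only Ung (-1.6) and Xrcc3 (-1.0) reached 2-fold lower in the authors' deposited table, where Xrcc5 stood at 0.9. Over all 11312 detected genes, 564 reached 2-fold lower there. Ung and Xrcc3 were past 2-fold under each of the 9 settings that gave a value per gene, Exo1 and Rad54b under 8 and Rad51ap1 under 7. Several of these settings could not undo such a call, so the counts are not a measure of support. The second table held the same values, raising dim signals left these genes unchanged, and both centrings took out a positive shift. In the authors' deposited table Exo1 and Rad51ap1 stood at -0.8 and Rad54b at -0.4. Of the 50 detected genes, 26 were below 0 under each of these settings, 8 were above 0 under each, and 15 changed sign in at least 1. Both centrings move every gene down, and neither the second table nor raised dim signals can reverse a sign. These sign counts, and a median below 0 under each setting, are therefore not a measure of support either.

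**Figure D5:**
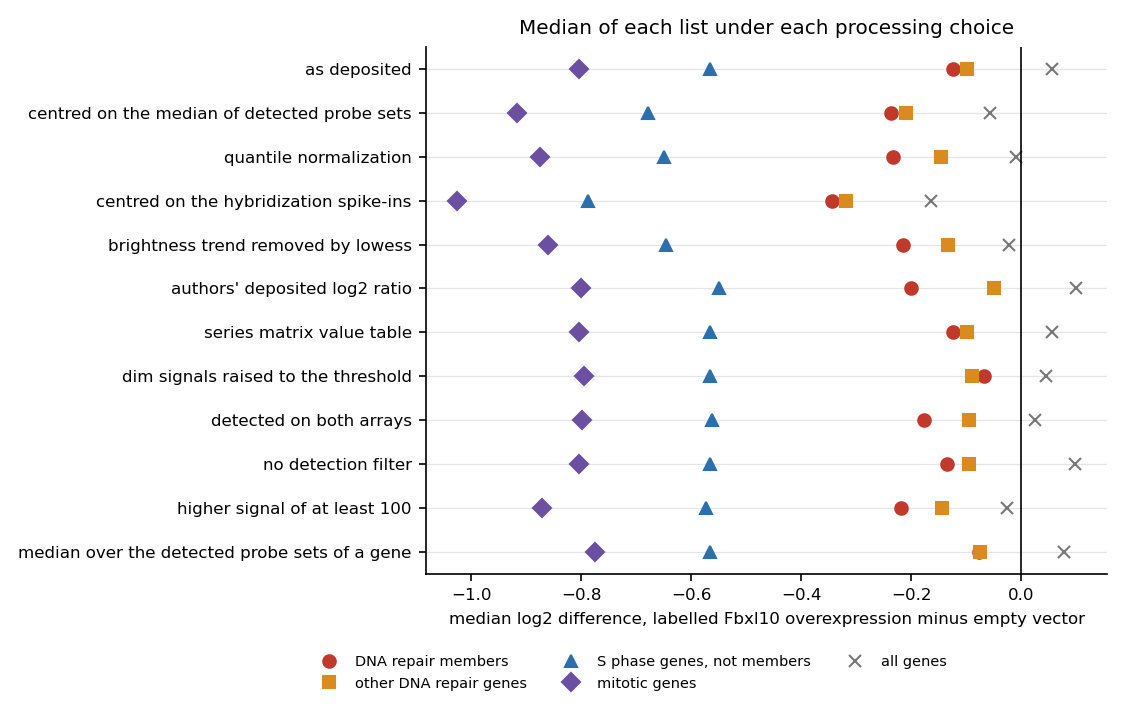
Median log2 difference (labelled Fbxl10 overexpression minus empty vector) of the detected genes of each list under each processing choice, with 1 array in each group. The DNA repair genes run from -0.34 with spike-in centring to -0.07 with dim signals raised to the threshold, between the S phase genes and all genes under each choice.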

How the data were processed

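Each of 2 libraries was hybridised to 1 Affymetrix mouse array after biotin labelling, per the labels' protocols. The deposited tables hold signal intensity per probe set (45101 probe sets), on a linear scale. From the values, both arrays had a mean of 100 once 2% was left out at each end, a scaling made before deposit. They also hold the authors' log2 ratio, positive, from the values, where the Fbxl10-labelled signal is higher. It differs from the difference of these signals: at 8148 probe sets with a signal of 200 or more, the 2 differed by an SD of 0.143. The summarisation software is not given in the sources used here. Both deposited tables held the same intensity values, with 0 probe sets differing.

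Differences were computed as log2 of the Fbxl10-labelled signal minus log2 of the empty vector signal, as deposited, with Python 3.11.15, pandas 2.3.3 and statsmodels 0.14.6. No pseudocount was used, so 4 probe sets holding a 0 gave no difference. Symbols were updated through RefSeq synonyms (GRCm38.p6): 33957 probe sets had 1 symbol, 31550 of them matched, 282 had several and 10798 none, and 6 of the repair genes were found by an older name. Other genes were read at their brightest probe set by the same rule. In the text a difference with 1 signal under 19.4 is given as a bound against 19.4 or by its signals alone. With 1 sample per group no test was run, and called sizes (2-fold, 1.5-fold) are rules of size. The steps were tested on simulated data. The genes and lists were chosen with earlier results of these data known. Text names each repair gene, and of the wider lists those past 2-fold and those at either end (3 each side in the repair lists, 2 in the marker lists). The alternatives were 4 scalings, the authors' ratio, the second table, 4 ways to treat dim signals, another probe set rule and 1.5-fold. Some genes of the wider lists that this rule would name are not reported here.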

Additional observations from a re-analysis of the deposited data

How the results depend on the processing

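As deposited, 5 repair genes were past 2-fold lower and 1 past 2-fold higher, 29 were below 0 and the median was -0.12. The number lower was 8 with quantile normalization, 8 with spike-in centring, 9 with the brightness trend removed, 2 by the authors' ratio, 1 with a higher signal of at least 100 required (17 genes left) and 14 at 1.5-fold. The number higher was 0 by the authors' ratio, 0 with the signal of at least 100 and 4 at 1.5-fold, and the number below 0 was 10 of the 17 genes left by that minimum. The median was -0.24 centred on the median of probe sets, -0.23 with quantile normalization, -0.34 with spike-in centring, -0.22 with the trend removed, -0.20 by the authors' ratio, -0.068 with signals under the threshold set to it, -0.18 with detection on both arrays, -0.13 with no filter, -0.22 with the signal of at least 100 and -0.076 with the median over probe sets. Alternatives for the wider repair list and for counts by role were chosen after seeing the data: 7 genes of the wider list were past 2-fold as deposited, 14 with spike-in centring and 3 with the signal of at least 100. The minimum left out Ung, Xrcc3, Exo1, Rad54b and Xrcc5, whose higher signals were under 100. The cause of the other changes was not tested. Of 400 values of single repair genes under alternatives, 5 lost and 12 gained the 2-fold size and none of those past 2-fold changed sign. With 1 array in each group no sample could be left out. No paired analysis was possible because each group is 1 sample, and low signal over background limits most of these genes.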

Other observations

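The authors' ratio and the signals parted for several repair genes. Of 46 detected genes with a ratio other than 0 in the authors' deposited table, 40 had the sign of the signal difference, and 31 of the 50 were below 0 by that ratio. Over the 50 genes the 2 measures differed by an SD of 0.289. In the authors' deposited table Fanca stood at -0.1, where the signals gave -0.83, and Rad54b at -0.4, where they gave -1.003. In the same deposited table Xrcc1 stood at -0.4 and Xrcc2 at -0.2, while their signal differences were 0.23 and 0.14. Which step of the summarisation separates them is not given in the sources used here.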
